A study of Homo sapiens with 56 samples.

Results

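JEKO-1 is an established human cell line of mantle cell lymphoma, a tumour of mature B cells in which a translocation places cyclin D1 under an immunoglobulin enhancer. The response described here is that of JEKO-1 to IBR, in 3 libraries, against 3 control libraries of the same line, of which 1 was CON (taken as untreated) and 2 were CLF. These 6 libraries were chosen by cell line and treatment code, not by a measured value, out of 15 JEKO-1 libraries and 56 in the whole series. IBR is read as ibrutinib because the design text names a BTK inhibitor; the labels do not spell the codes out, and what CLF stands for is not given. Dose, exposure time and culture were not given in the sources used here, nor was any statement that libraries of a group came from separate cultures, so every p-value measures only the spread between these libraries, which may be technical. CLF libraries were placed with CON because earlier results on these data had put CLF alone close to untreated cells in this line, and the values of CON and of each CLF library are kept apart throughout. Z138, a further mantle cell lymphoma line, served for comparison, with 2 IBR, 2 CON and 2 CLF libraries. Replicate numbers follow the order of the series and pair nothing.

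Antigen binding at the B-cell receptor leads the kinases LYN and SYK to phosphorylate the CD79A and CD79B chains, after which BTK, held near the receptor with the adaptor BLNK, activates the phospholipase PLCG2. Protein kinase C beta, BCL10 and MALT1 carry the signal on to NF-kB, while calcium and MAP kinase branches switch on early genes such as EGR1 and NR4A1. Ibrutinib binds BTK covalently and blocks its kinase activity, and is used against mantle cell lymphoma.

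Levels are CPM, the reads of a gene scaled to a common library total, and differences are IBR minus control in log2(CPM + 1), so the added 1 shrinks the change of weakly expressed genes. A gene is said to have risen or fallen where limma gave a Benjamini-Hochberg adjusted p under 0.05 over all 13408 genes that reached 1 CPM in no fewer than 2 of these 6 libraries. In bulk RNA, fewer cells of a kind and less RNA per cell cannot be told apart.

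The libraries differed in more than treatment. Recovered depth was 17.4 to 18.8 M reads in the controls and 7.09, 7.73 and 15.6 M in IBR replicates 1, 2 and 3. Mitochondrial transcripts held 1.91% of CON, 2.14% and 4.38% of the CLF libraries, and 20.9%, 19.9% and 13.5% of the IBR libraries. The groups did not overlap, with means of 2.81% ± 1.36 (SD, n = 3) and 18.1% ± 4.02 (SD, n = 3), and the difference of 15.3 percentage points had an exact two-sided permutation p of 0.1, the smallest that 3 against 3 libraries allow. Because CPM values share a fixed total, each result was also computed with the genes of chromosome M left out and the libraries rescaled. IBR replicates 1 and 2, whose library names differ by a final letter, had a chi-square per degree of freedom of 5.06, and CON with CLF replicate 1 had 6.66, against 104 to 355 in the other 13 pairs. CLF replicate 2 and IBR replicate 3 stood apart from the rest of their groups, and IBR replicate 3 correlated more closely with CLF replicate 2 (Pearson r = 0.945 across genes) than with IBR replicates 1 and 2 (r = 0.926 and 0.929). IBR replicate 3 also had few lowly counted genes, 173 at 2 to 4 reads and 331 at 8 to 10, where IBR replicate 1 had 1068 and 397. For most gene lists, and for genes where it matters, the difference is therefore also given, with chromosome M left out, for IBR replicates 1 and 2 minus CON and CLF replicate 1, and for IBR replicate 3 minus CLF replicate 2. These comparisons share no library, and the grouping was chosen after the data were seen.

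**Figure D1:**
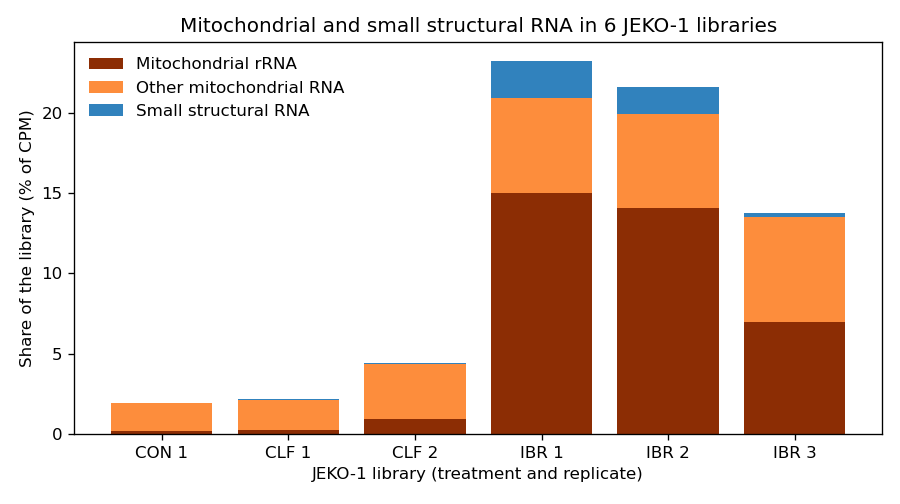
Stacked bars give the share of each of 6 JEKO-1 libraries, in percent of CPM, held by mitochondrial rRNA, other mitochondrial RNA and small structural RNA. Mitochondrial RNA makes up 1.91% to 4.38% of the control libraries and 13.5% to 20.9% of the IBR libraries.

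The B-cell markers fixed for the line, which include MS4A1, CD79A and CCND1, were all detected, with a summed level of 2675 to 4012 CPM in controls and 1395 to 1602 CPM in IBR. Markers of myeloid, fibroblast, epithelial, erythroid and NK cells each summed to at most 16.0 CPM in any library, and 3 of 4 fibroblast, 2 of 5 epithelial, 2 of 5 NK and 1 of 6 T-cell markers were listed at 0 in all 6. The T-cell marker sum was 8.84 to 17.2 CPM in controls and 0.141 to 3.46 CPM in IBR. Most of it in the controls was TRAC, the T-cell receptor alpha constant gene, at 16.7, 8.21 and 16.8 CPM in controls and 0.141, 0.388 and 2.69 CPM in IBR, while CD3D, CD3E and CD3G were each under 1 CPM in every library. The part of these markers in the results was not tested.

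In JEKO-1 treated with IBR, genes of B-cell receptor signalling, MHC class II presentation, immunoglobulin and DNA replication were lower, genes of the oxidative stress response were higher, and MYC was close to its control level. Of the 13408 genes tested, 2445 (18.2%) passed, 563 higher (4.2%) and 1882 lower (14%). The median gene was at -0.22, and with chromosome M left out it was at 0.00. In that scaling 1845 of 13562 genes passed (13.6%), 899 higher (6.63%) and 946 lower (6.98%), and 1497 genes passed in both. With IBR replicates 1 and 2 averaged into 1 value the count fell to 444 (3.37%), and to 20 when chromosome M was also left out. Leaving out 1 library gave 292 genes without IBR replicate 1, 417 without IBR replicate 2, 4639 without IBR replicate 3, 62 without CON, 223 without CLF replicate 1 and 3258 without CLF replicate 2.

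The 12 largest falls among genes passing in both scalings, without overlap and with at least 5 CPM in the higher group, were MPEG1, PTPRCAP, NIBAN3, IGLC1, PTPN6, JCHAIN, IGLC3, IGLC2, PLD4, SPIB, RRM2 and IGLC6. MPEG1 encodes perforin-2, a pore-forming protein of phagocytes and B cells (ENSG00000197629, chr11:59208510-59212928). Its levels in CON, CLF replicate 1 and CLF replicate 2 were 297, 219 and 202 CPM, against 1.41, 2.72 and 6.72 CPM in IBR replicates 1 to 3. Every IBR library lay far below every control, a difference of -5.85 (SE 0.40, limma adjusted p 0.00189). PTPRCAP, which encodes a protein bound to the phosphatase CD45 (ENSG00000213402, chr11:67435510-67437683), was at 158, 134 and 80.6 CPM in controls and 4.66, 1.03 and 2.56 CPM in IBR, a fall of the same kind with no overlap (-5.13, SE 0.41, adjusted p 0.00262). PLD4, an exonuclease of endosomes (ENSG00000166428, chr14:104924713-104937762), was at 326, 282 and 356 CPM in controls and 11.4, 17.7 and 25.7 CPM in IBR (-4.13, SE 0.28, adjusted p 0.00189). For these 3 genes the comparison of IBR replicate 3 with CLF replicate 2 alone gave -4.60, -4.43 and -3.61. The naming rule required no overlap between the groups, so the direction here was set by the choice of genes. Of 115 called genes followed through every alternative, 7 passed in each, namely SNORD3A, RN7SL4P, MPEG1, PTPRCAP, PTPN6, PLD4 and HLA-DMB. A further 35 lost the call in 1 to 5 alternatives and 73 in more. In the opposite direction 0 of the 115 passed, which says little. The genes were chosen as called, and the alternatives refit largely the same libraries.

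Of the 21 B-cell receptor signalling genes tested, 11 fell and 0 rose, against 14% of all genes lower, and with chromosome M left out the counts were the same (background 6.98% lower). The list's median was -0.94 (all genes -0.22), and -0.69 with chromosome M left out (all genes 0.00). The receptor chains did not pass. CD79A was at 332, 335 and 310.4 CPM in controls and 234, 246 and 174 CPM in IBR (adjusted p 0.0642), and CD79B at 439.9, 476 and 184 CPM in controls and 183, 177 and 197 CPM in IBR (adjusted p 0.116). Among the kinases, LYN, which starts the cascade and also activates its inhibitors, was at 126, 116 and 92.3 CPM in controls and 41.9, 40.2 and 45.7 CPM in IBR. The IBR values lay close together below all controls (-1.36, SE 0.18, adjusted p 0.00785). BTK, the target of the drug, was at 172, 180.2 and 154 CPM in controls and 87.3, 90.2 and 84.7 CPM in IBR, without overlap (-0.94, SE 0.16, adjusted p 0.0112; -0.69 with chromosome M left out). SYK did not pass (595, 537 and 416 against 301, 309 and 429 CPM, adjusted p 0.113), nor did PRKCB, which encodes protein kinase C beta (adjusted p 0.0504).

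Downstream of BTK, PLCG2 was at 271, 241 and 225 CPM in controls and 136, 132 and 150.5 CPM in IBR (-0.81, SE 0.16, adjusted p 0.018). Every IBR library was below every control. BCL10 and MALT1, which relay the signal to NF-kB, gave -0.16 and 0.00 with adjusted p-values of 0.762 and 0.993, and BLNK gave -0.39 (adjusted p 0.171). On the phosphoinositide 3-kinase side, the adaptor PIK3AP1 fell (-1.97, adjusted p 0.0111) and the exchange factor VAV1 also fell (-1.66, adjusted p 0.00625). The kinase subunits did not pass, with PIK3CD at 0.27 (adjusted p 0.309) and PIK3R1 at -0.01 (adjusted p 0.978).

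Inhibitors of the receptor fell as well. PTPN6 encodes SHP-1, the phosphatase that dampens the receptor (ENSG00000111679, chr12:6946468-6961317), and stood at 216, 151 and 156 CPM in controls and 5.64, 10.9 and 2.82 CPM in IBR. This was the largest fall of the list, with a wide gap between the groups (-4.69, SE 0.39, adjusted p 0.00309). Among inhibitory receptors, which recruit phosphatases, FCGR2B fell from 86.2, 72.8 and 53.1 CPM to 14.4, 17.7 and 26.6 CPM (-1.82, adjusted p 0.00907), and CD72 fell by 2.29 (adjusted p 0.00907). CD22 was at 25.4, 21.6 and 5.80 CPM in controls and 2.82, 0.517 and 2.95 CPM in IBR (-2.49, adjusted p 0.0267), with CLF replicate 2 nearer to the IBR libraries than to the other controls. The lipid phosphatase INPP5D did not pass (-0.45, adjusted p 0.184). With IBR replicates 1 and 2 averaged 7 genes of the list fell, and 1 fell with chromosome M also left out. Leaving out 1 library gave 1 gene without CON, 5 without CLF replicate 1 and 7 without either IBR replicate 1 or 2; in such sentences, here and further on, the libraries named are those whose removal moved a count by over 1.5 times. The list's median was -1.04 for IBR replicates 1 and 2 against CON and CLF replicate 1, and -0.68 for IBR replicate 3 against CLF replicate 2.

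**Figure D2:**
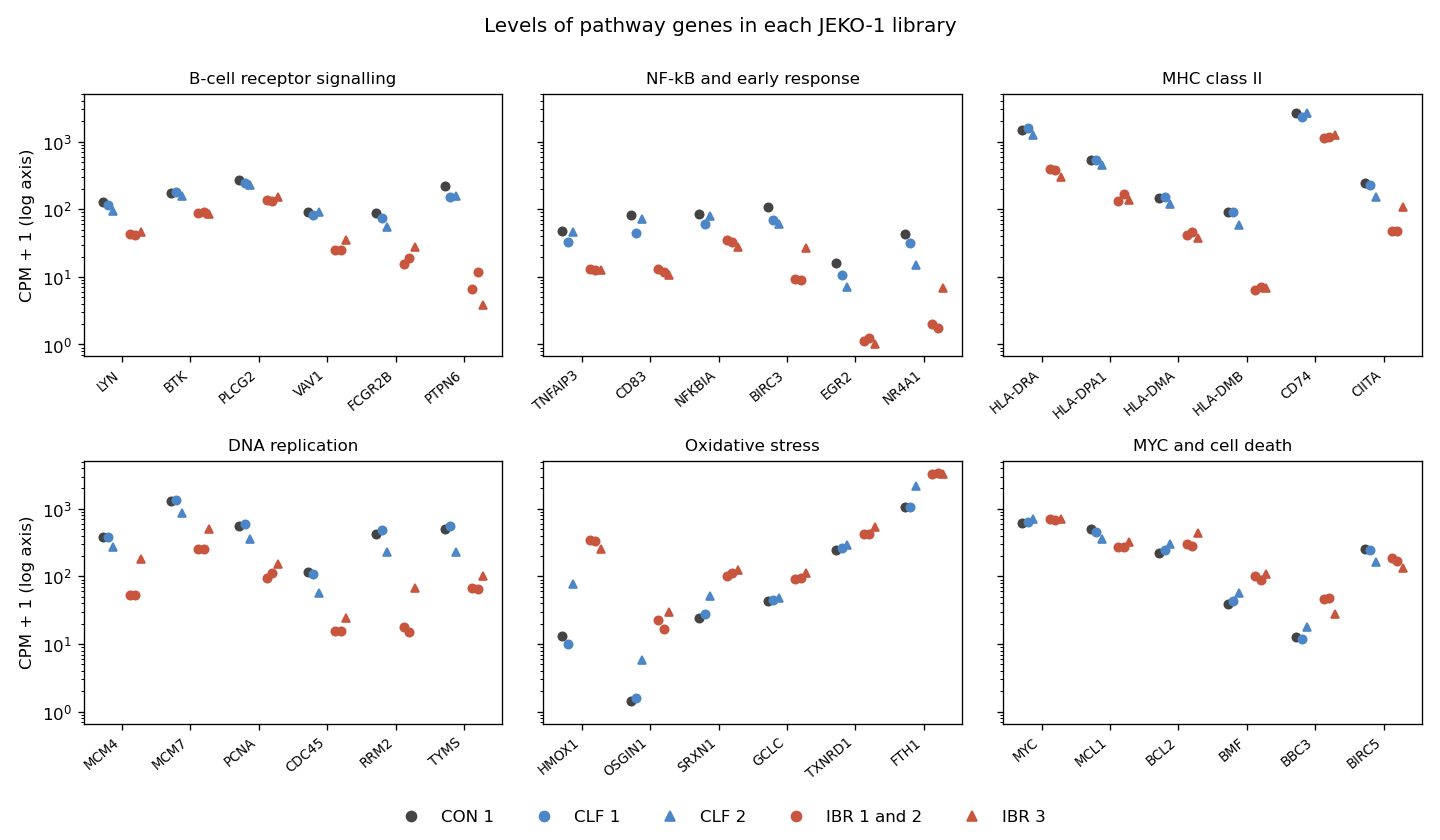
Points give the level of 36 genes in each of 6 JEKO-1 libraries as CPM + 1 on a log axis, in panels by pathway, with controls to the left (CON dark grey, CLF blue) and IBR in red, and triangles marking CLF replicate 2 and IBR replicate 3. For HLA-DMB, TNFAIP3 and BTK the IBR libraries lie close together below all controls, for HMOX1 they lie above all controls, and for MYC they lie among or beside them.

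Part of the NF-kB targets and more of the early genes of receptor signalling fell. Short stretches upstream of 4 NF-kB targets are shown because these genes fell and the element lies there. The promoter sequences are RefSeq's on GRCh38.p14, each is read 5′ to 3′ on the gene's strand, and capitals mark matches to the NF-kB element on either strand, searched as GGG, any 3 bases and TTCC or as GGG, any 2 bases and TTTCC, with overlapping matches merged.
TNFAIP3, chr6:137867188-137867217, plus strand: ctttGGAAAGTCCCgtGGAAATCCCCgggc
CD83, chr6:14117711-14117740, plus strand: ctggcgcgcaGGGAAGTTCCCgaacgcgcg
NFKBIA, chr14:35404786-35404865, minus strand: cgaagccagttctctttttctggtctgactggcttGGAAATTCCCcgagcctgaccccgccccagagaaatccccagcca
BIRC3, chr11:102317250-102317329, plus strand: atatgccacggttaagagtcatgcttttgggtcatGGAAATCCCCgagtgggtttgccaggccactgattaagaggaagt
Within 250 bases upstream of the start, 10 of the 17 genes of the NF-kB list found in the promoter table (58.8%) held such a match, against 6.9% of 27305 genes. The list holds known pathway and target genes, so a high share was likely whatever these data showed. The 10 include NFKB2, NFKBIB and TNIP1, which did not pass, and EBI3, which was not tested. The share is not tied to falling. A match is a description of letters, not a binding site.

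TNFAIP3, the deubiquitinase A20 that restrains NF-kB, was at 46.5, 32.1 and 45.5 CPM in controls and 12, 11.8 and 11.7 CPM in IBR. The 3 IBR values were nearly equal and below all controls (-1.71, SE 0.22, adjusted p 0.00712). CD83, a surface marker of activated B cells, was at 82.5, 43.2 and 70.2 CPM in controls and 12, 11 and 9.67 CPM in IBR (-2.43, SE 0.27, adjusted p 0.00545). NFKBIA, the inhibitor IkB-alpha, was at 84.3, 58.9 and 77.8 CPM in controls and 34.1, 32.3 and 27.1 CPM in IBR (-1.20, adjusted p 0.0117), again without overlap. BIRC3, the ubiquitin ligase cIAP2, was at 107, 68.4 and 58.7 CPM in controls and 8.18, 8.02 and 25.9 CPM in IBR (-2.55, adjusted p 0.0122), with IBR replicate 3 the highest of the treated libraries. The subunit genes NFKB1 and REL also fell (-1.05 and -1.38, adjusted p 0.0242 and 0.0117), as did the inhibitor NFKBIE (-1.42, adjusted p 0.0143). In all, 7 of the 18 genes tested fell and 0 rose (14% of all genes fell), 6 fell with chromosome M left out (6.98% of all genes), 3 with IBR replicates 1 and 2 averaged, and 0 in limma with both changes. The count was 1 gene without CON, 2 without either IBR replicate 1 or 2 and 4 without CLF replicate 1. The list's median was -0.85, and 15 of 18 genes were lower in IBR replicate 3 than in CLF replicate 2 on the rescaled values.

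Of 17 early response genes tested, 9 fell and 0 rose, against 14% of all genes lower, and 9 fell and 1 rose with chromosome M left out, against 6.98% lower and 6.63% higher. The list's median was -1.25, and on the rescaled values -0.91 for IBR replicates 1 and 2 and -1.05 for IBR replicate 3. EGR2, a zinc finger factor induced by receptor signalling, was at 15, 9.64 and 5.98 CPM in controls and 0.141, 0.259 and 0 CPM in IBR, where 3 reads correspond to 0.423, 0.388 and 0.192 CPM. All IBR libraries were below that floor, so the fitted difference of -3.23 (SE 0.37, adjusted p 0.00574) depends on the pseudocount. EGR1 was at 13.9, 7.17 and 9.14 CPM in controls and 1.27, 1.94 and 1.34 CPM in IBR (-2.10, adjusted p 0.00907). NR4A1, the orphan receptor Nur77, was at 41.6, 30.6 and 14 CPM in controls and 0.987, 0.776 and 5.94 CPM in IBR (-3.23, adjusted p 0.0135). The AP-1 member JUNB fell by 1.25 (adjusted p 0.0088), IER2 fell by 1.72 (adjusted p 0.00712) and the phosphatase DUSP2 fell by 1.99 (adjusted p 0.0177). The exception was FOSB, at 0.425, 0.402 and 0.460 CPM in controls and 1.83, 1.42 and 3.01 CPM in IBR, which passed with chromosome M left out (1.26, adjusted p 0.0415) but not as deposited (adjusted p 0.0501). With IBR replicates 1 and 2 averaged 5 of the list fell, and 0 passed in limma with chromosome M also left out. Leaving out 1 library gave 1 gene without CON, 4 without IBR replicate 1 or CLF replicate 1 and 5 without IBR replicate 2. Of the cytokine and chemokine genes, 3 of 11 tested fell, CXCL10 and CCL4, which were listed at 0 in all IBR libraries and at no more than 4.89 CPM in controls, and IL16 (-1.42, adjusted p 0.0171), against 14% of all genes lower. That count was 0 genes without IBR replicate 1, IBR replicate 2, CON or CLF replicate 1 and 5 without IBR replicate 3. IL10, an anti-inflammatory cytokine of B cells, was at 15.5, 3.62 and 1.95 CPM in controls and 0, 0 and 1.79 CPM in IBR and did not pass (-2.11, adjusted p 0.0651).

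MHC class II genes, which present antigen to helper T cells, were lower in every library. Of 10 tested, 9 fell and 0 rose in both scalings, against 14% and 6.98% of all genes lower, and all 10 had no overlap between the groups, against 27.9% of all genes lower without overlap. The list's median was -1.77, 6 fell with IBR replicates 1 and 2 averaged, and 5 fell without CON replicate 1. With those 2 averaged and chromosome M left out, 1 fell. HLA-DRA was at 1466, 1606 and 1237 CPM in controls and 392, 377 and 303 CPM in IBR (-2.0, SE 0.22, adjusted p 0.0052). HLA-DPA1 was at 530.4, 537 and 447 CPM in controls and 131, 168 and 135 CPM in IBR (-1.80, SE 0.18, adjusted p 0.00469). Both are chains of peptide-binding molecules, and in both the highest IBR library lay well under the lowest control. HLA-DMB, a chain of the peptide loader HLA-DM (ENSG00000242574, chr6:32934629-32941029), had the largest fall, from 89.6, 89.9 and 58.2 CPM to 5.36, 6.08 and 5.89 CPM (-3.54, SE 0.24, adjusted p 0.00189). Its partner HLA-DMA fell by 1.74 (adjusted p 0.00495) and the invariant chain CD74 fell by 1.10 (adjusted p 0.0227). CIITA, the co-activator that drives these genes, fell from 243, 226 and 151 CPM to 47.5, 46.3 and 109 CPM (-1.69, adjusted p 0.0187). On the rescaled values CIITA gave -2.0 for IBR replicates 1 and 2 against CON and CLF replicate 1 and -0.33 for IBR replicate 3 against CLF replicate 2, whereas for HLA-DMB these values were -3.50 and -2.99. HLA genes are highly similar and vary between people, so the split of reads among them is uncertain.

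The promoters of class II genes share a Y box, a CCAAT element read by the factor NF-Y, shown here for the gene that fell most, with capitals marking the match to GATTGG on either strand.
HLA-DMB, chr6:32941033-32941062, minus strand: ctgcctacctagCCAATCtgtccctgtttg
A match lay within 250 bases upstream in 5 of the 8 class II genes in the promoter table (62.5%), against 16.8% of 27305 genes; this motif was added after the data were seen.

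Immunoglobulin transcripts also fell. Of 13 immunoglobulin constant entries tested, a group chosen after the data were seen, 10 fell and 0 rose, against 14% of all genes lower. The group was not counted with chromosome M left out or under other alternatives. It includes the near-identical lambda entries given below. The heavy chain IGHM was at 4625, 4488 and 4387 CPM in controls and 1688, 1758 and 2589.8 CPM in IBR (-1.19, adjusted p 0.0376; 0.0621 with chromosome M left out). IGHD, of the other heavy chain class on mature B cells, was at 100.4, 89.1 and 101 CPM in controls and 7.48, 5.82 and 15.7 CPM in IBR (-3.31, adjusted p 0.00469). The kappa constant gene IGKC fell by less (-1.10, adjusted p 0.0176) than the lambda entries IGLC1, IGLC2 and IGLC3 (-4.81, -4.21 and -4.39, adjusted p 0.0025, 0.00901 and 0.00712), a difference that was not tested. The lambda copies are near-identical and their separate values are uncertain. JCHAIN, which joins secreted IgM, was at 132, 153 and 35.1 CPM in controls and 0.705, 0.259 and 24.7 CPM in IBR (-4.57, adjusted p 0.0275), with -6.53 for IBR replicates 1 and 2 and -0.35 for IBR replicate 3 against CLF replicate 2.

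Among 17 B-cell transcription factors, 5 fell and 1 rose (14% and 4.2% of all genes), with chromosome M left out 3 fell and 1 rose (6.98% and 6.63%), and with IBR replicates 1 and 2 averaged 0 passed in limma. PAX5, the factor that maintains B-cell identity, was at 268, 259 and 168 CPM in controls and 51.5, 50.4 and 105 CPM in IBR (-1.79, adjusted p 0.0131). SPIB, an Ets factor of B cells, was at 328, 291 and 157 CPM in controls and 6.77, 6.02 and 62.4 CPM in IBR (-4.03, adjusted p 0.0153). IKZF1 (Ikaros) fell by 1.69 (adjusted p 0.0273), though IBR replicate 3 differed from CLF replicate 2 by -0.06 only. XBP1, the plasma cell and unfolded protein factor, rose (82.7, 99.6 and 144 to 258, 271 and 164 CPM; 1.08, adjusted p 0.0325). PRDM1, which drives plasma cell differentiation, did not pass (1.45, adjusted p 0.174), nor did IRF4 (0.39, adjusted p 0.325). In this list the median was -0.65 for IBR replicates 1 and 2 and 0.16 for IBR replicate 3 against CLF replicate 2, on opposite sides of 0. The fallers numbered 0 genes without IBR replicate 1, IBR replicate 2, CON or CLF replicate 1.

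Of 14 surface antigens used to recognise or target the lymphoma, 9 fell and 1 rose (14% and 4.2% of all genes). With chromosome M left out 6 fell and 1 rose (6.98% and 6.63%). With IBR replicates 1 and 2 averaged 3 fell, and 0 passed in limma with both changes. The list's median on the rescaled values was -1.15 for IBR replicates 1 and 2 and -0.87 for IBR replicate 3. MS4A1 (CD20) was at 721, 694 and 648 CPM in controls and 247, 256 and 282 CPM in IBR, without overlap (-1.39, SE 0.17, adjusted p 0.00712). CD52 fell from 36.1, 28.5 and 35.2 CPM to 7.62, 12.2 and 5.96 CPM (-1.88, adjusted p 0.00907), and CD24 fell by 1.80 (adjusted p 0.0249). The fallers here came to 0 genes without CON and 3 without IBR replicate 1, IBR replicate 2 or CLF replicate 1. ROR1, an orphan receptor kinase of mantle cells, was the gene that rose (29.1, 33.5 and 33.3 to 84.1, 79.4 and 44.5 CPM; 1.04, adjusted p 0.0316). Of 14 homing and adhesion genes, 2 fell and 1 rose as deposited, against 14% of all genes lower and 4.2% higher. CXCR5 and ITGA4 fell (-1.21 and -1.87, adjusted p 0.0297 and 0.0357) but not with chromosome M left out (adjusted p 0.0594 and 0.0549). CXCR4, a receptor that holds lymphoma cells in tissue, did not pass (437, 490.4 and 283 against 243, 282 and 375 CPM, adjusted p 0.306). The count of fallers was 0 genes without IBR replicate 1, IBR replicate 2, CON or CLF replicate 1 and 5 without IBR replicate 3. SELPLG, the selectin ligand PSGL-1, rose from 8.29, 9.87 and 15.1 CPM to 31.5, 34.9 and 61 CPM (1.82, adjusted p 0.0128).

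DNA replication genes fell almost as a block, while in the mitosis list 2 of 20 genes passed. Of 20 replication genes, 19 fell and 0 rose, with a median of -1.52, against 14% of all genes lower. With chromosome M left out 17 fell, against 6.98% of all genes. With IBR replicates 1 and 2 averaged 5 fell, and 0 passed in limma with chromosome M also left out. Leaving out 1 library gave 0 genes without CON and 5 without IBR replicate 1, IBR replicate 2 or CLF replicate 1. Promoter stretches of 3 of them are shown because they hold the element read by E2F factors, which drive S-phase genes. Capitals mark matches to TTTGGCGC, TTTCCCGC, TTTGCCGC or TTTCGCGC on either strand.
TYMS, chr18:657603-657632, plus strand: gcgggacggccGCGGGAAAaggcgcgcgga
PCNA, chr20:5126638-5126717, minus strand: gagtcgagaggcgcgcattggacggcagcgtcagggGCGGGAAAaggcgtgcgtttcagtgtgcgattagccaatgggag
MCM6, chr2:135876519-135876598, minus strand: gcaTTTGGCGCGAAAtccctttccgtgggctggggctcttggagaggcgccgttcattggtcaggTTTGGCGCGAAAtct
Such a match lay upstream of 9 of the 18 replication genes in the promoter table , against 3.4% of 27305 genes; this motif, too, was added after the data were seen.

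RRM2, the small subunit of ribonucleotide reductase that supplies deoxynucleotides (ENSG00000171848, chr2:10120698-10211726), was at 429.8, 489 and 229 CPM in controls and 16.6, 13.8 and 67 CPM in IBR. It had the largest fall of the list, with all treated libraries under all controls (-3.80, SE 0.56, adjusted p 0.00907). TYMS, which makes thymidylate, was at 499, 555 and 231 CPM in controls and 65.7, 64.8 and 99 CPM in IBR (-2.40, SE 0.35, adjusted p 0.0088). PCNA, the clamp of the DNA polymerases, was at 566, 600.1 and 357 CPM in controls and 92.8, 109.8 and 154 CPM in IBR (-2.08, SE 0.27, adjusted p 0.00712). In each of these, CLF replicate 2 was the lowest control and IBR replicate 3 the highest treated library. The helicase subunits MCM2, MCM3, MCM4, MCM5, MCM6 and MCM7 fell, with differences of -1.13, -1.53, -2.10, -1.38, -1.07 and -1.87 and adjusted p-values of 0.024, 0.0134, 0.0216, 0.0147, 0.0331 and 0.0119. MCM6 did not pass with chromosome M left out (adjusted p 0.0612). The helicase activator CDC45 fell from 114, 109 and 56.8 CPM to 14.5, 14.6 and 23.4 CPM (-2.32, adjusted p 0.00797). Between the library sets the list's median was -1.65 for IBR replicates 1 and 2 and -0.51 for IBR replicate 3 against CLF replicate 2.

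Of 12 G1 regulators, 6 fell and 0 rose (14% of all genes lower), 4 fell with chromosome M left out (6.98%), and 0 passed in limma with IBR replicates 1 and 2 averaged. The number was also 0 genes without IBR replicate 1, IBR replicate 2, CON or CLF replicate 1, and the list's median was -0.65 for IBR replicates 1 and 2 and -0.57 for IBR replicate 3. CCND1, cyclin D1, was at 2096, 2191 and 1315 CPM in controls and 663, 685 and 836 CPM in IBR, without overlap (-1.33, SE 0.28, adjusted p 0.0189). RB1, the retinoblastoma protein that restrains E2F, fell from 292, 292 and 204 CPM to 61.5, 57.7 and 118 CPM (-1.78, adjusted p 0.0113), and CCNE1, cyclin E1, fell by 1.39 (adjusted p 0.0216). CDK4 fell as deposited (-0.97, adjusted p 0.0243) but not with chromosome M left out (adjusted p 0.06). In the mitosis list 2 of 20 genes fell, TOP2A and CDK1 (-0.74 and -1.17, adjusted p 0.0434 and 0.0305), and 0 passed with chromosome M left out. That count, under the 14% of all genes lower, was 0 genes without IBR replicate 1, IBR replicate 2, CON or CLF replicate 1 and 4 without CLF replicate 2. A term setting CLF replicate 2 and IBR replicate 3 apart from the rest was added after the data were seen. With it 9 of 20 mitosis genes fell, as did 3431 of all 13408 genes. PLK1, the polo kinase, was at 124, 104 and 131 CPM in controls and 158, 178 and 85.4 CPM in IBR, in overlapping groups (adjusted p 0.703). BUB1, of the spindle checkpoint, was at 143, 136 and 143 CPM in controls and 111, 113 and 142 CPM in IBR (adjusted p 0.405).

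MYC did not pass. Its level was 607, 647 and 718 CPM in controls and 705, 691 and 718 CPM in IBR, in overlapping groups (0.10, SE 0.19, adjusted p 0.734; 0.35 and 0.223 with chromosome M left out). In the list of MYC and ribosome biogenesis genes, many of them known MYC targets, 14 of 19 tested fell (median -1.19, 14% of all genes lower). The fallers numbered 9 with chromosome M left out (6.98%) and 5 with IBR replicates 1 and 2 averaged (337 of 13192 genes lower). With both changes 0 passed in limma. On the rescaled values the median was -0.98 for IBR replicates 1 and 2 and -0.72 for IBR replicate 3. The number was 0 genes without CON, 4 without CLF replicate 1, 5 without either IBR replicate 1 or 2 and 9 without CLF replicate 2. NOP56, a core protein of snoRNA particles, was at 597, 525 and 424 CPM in controls and 111, 129.7 and 197 CPM in IBR (-1.84, SE 0.25, adjusted p 0.00797). NOP16 fell from 78.8, 74.4 and 60.00 CPM to 22.6, 23.9 and 17.4 CPM (-1.69, adjusted p 0.007). ODC1, which starts polyamine synthesis, was at 1263, 1229.8 and 1211 CPM in controls and 378, 369 and 568 CPM in IBR (-1.52, adjusted p 0.00907). In each, the treated libraries were all below the controls.

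NRF2, the factor that answers oxidative and electrophile stress, has a set of targets that were higher. Of 17 NRF2 targets tested, 6 rose and 1 fell (background 4.2% higher), and 9 rose and 0 fell with chromosome M left out (background 6.63%). With IBR replicates 1 and 2 averaged 3 rose, and 0 passed in limma with chromosome M also left out. Leaving out 1 library gave 0 genes without CON, 1 without IBR replicate 1 or CLF replicate 1, 2 without IBR replicate 2 and 11 without CLF replicate 2. HMOX1, heme oxygenase 1 (ENSG00000100292, chr22:35380361-35394215), was at 12.1, 9.18 and 75.5 CPM in controls and 347, 334 and 254 CPM in IBR. CLF replicate 2 stood above the other controls, and all treated libraries stood above it (3.84, SE 0.67, adjusted p 0.0123; 0.0561 with IBR replicates 1 and 2 averaged). The rescaled difference was 5.19 for IBR replicates 1 and 2 and 1.88 for IBR replicate 3 against CLF replicate 2. OSGIN1 was at 0.425, 0.574 and 4.77 CPM in controls and 22, 15.9 and 28.6 CPM in IBR (3.27, adjusted p 0.0111), and SRXN1, sulfiredoxin, at 23.1, 26.5 and 49.8 CPM in controls and 98.9, 111 and 125 CPM in IBR (1.80, adjusted p 0.00997). GCLC, the catalytic subunit of the first enzyme of glutathione synthesis, was at 42.6, 44.4 and 47.1 CPM in controls and 89.4, 93 and 111 CPM in IBR (1.11, SE 0.17, adjusted p 0.00907). It differed by 1.35 in IBR replicates 1 and 2 and by 1.36 in IBR replicate 3 against CLF replicate 2. The gene that fell as deposited was PRDX1 (-0.85, adjusted p 0.0256). An antioxidant response element, TGACNNNGC on either strand, lay upstream of 4 of 12 NRF2 targets in the promoter table (33.3%), against 13.2% of all genes. The 4 were GCLM, PGD, TXNRD1 and ME1, the last of which had no entry in the expression data. OSGIN1, SRXN1 and GCLC held no match, and HMOX1 was not among the 12.

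Endoplasmic reticulum and amino acid stress genes rose less evenly. Of 15 unfolded protein response genes, 4 rose and 0 fell, XBP1, DNAJB9, DNAJC3 and SEL1L, against 4.2% of all genes higher, and with chromosome M left out the chaperone HSPA5 joined them (976, 1036 and 2398 CPM in controls, 3249.6, 3446 and 2750.1 CPM in IBR; adjusted p 0.0473). Of 21 ATF4 targets, 3 rose, TRIB3, CEBPB and DDIT4, and 6 rose with chromosome M left out, against 4.2% and 6.63% of all genes. In both lists 0 genes passed in limma with IBR replicates 1 and 2 averaged. TRIB3, a pseudokinase induced by stress, was at 77.3, 97.5 and 684 CPM in controls and 1069, 1190.0 and 1029.5 CPM in IBR (2.65, SE 0.72, adjusted p 0.0396), so that CLF replicate 2 stood nearer to the treated libraries than to the other controls. GDF15, a stress-induced secreted factor and the largest rise of a protein-coding gene by the naming rule, showed the same order, with 0.0531, 0.230 and 18.6 CPM in controls and 50.5, 50.4 and 30.6 CPM in IBR (3.90, SE 1.0, adjusted p 0.0339), and rescaled differences of 5.82 for IBR replicates 1 and 2 and 0.83 for IBR replicate 3. With 1 library left out, the unfolded protein response list gave 0 genes without IBR replicate 1, IBR replicate 2, CON or CLF replicate 1, 7 without CLF replicate 2 and 9 without IBR replicate 3, and the ATF4 list gave 0 genes without IBR replicate 1, IBR replicate 2, CON or CLF replicate 1, 6 without IBR replicate 3 and 16 without CLF replicate 2. Their medians were 1.40 (unfolded protein response) and 1.60 (ATF4) for IBR replicates 1 and 2, and -0.01 and 0.14 for IBR replicate 3 against CLF replicate 2. Of 15 lysosome and autophagy genes, 3 rose, among them GABARAPL1 (5.23, 5.83 and 19.1 to 50.4, 54.6 and 40.1 CPM; 2.37, adjusted p 0.0137) and ULK1 (1.48, adjusted p 0.0142). That compares with 4.2% of all genes higher, and the lysosome count was 0 genes without IBR replicate 1, IBR replicate 2, CON or CLF replicate 1 and 9 without CLF replicate 2. In the heat shock list, 2 of 13 rose, HSPA6 and BAG3 (1.61 and 1.32, adjusted p 0.0148 and 0.0121), against 4.2% of all genes higher. The list's median was -0.22, the same as for all genes, and 0.03 with chromosome M left out (all genes 0.00). The heat shock count was 0 genes without IBR replicate 1, IBR replicate 2, CON or CLF replicate 1.

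**Figure D3:**
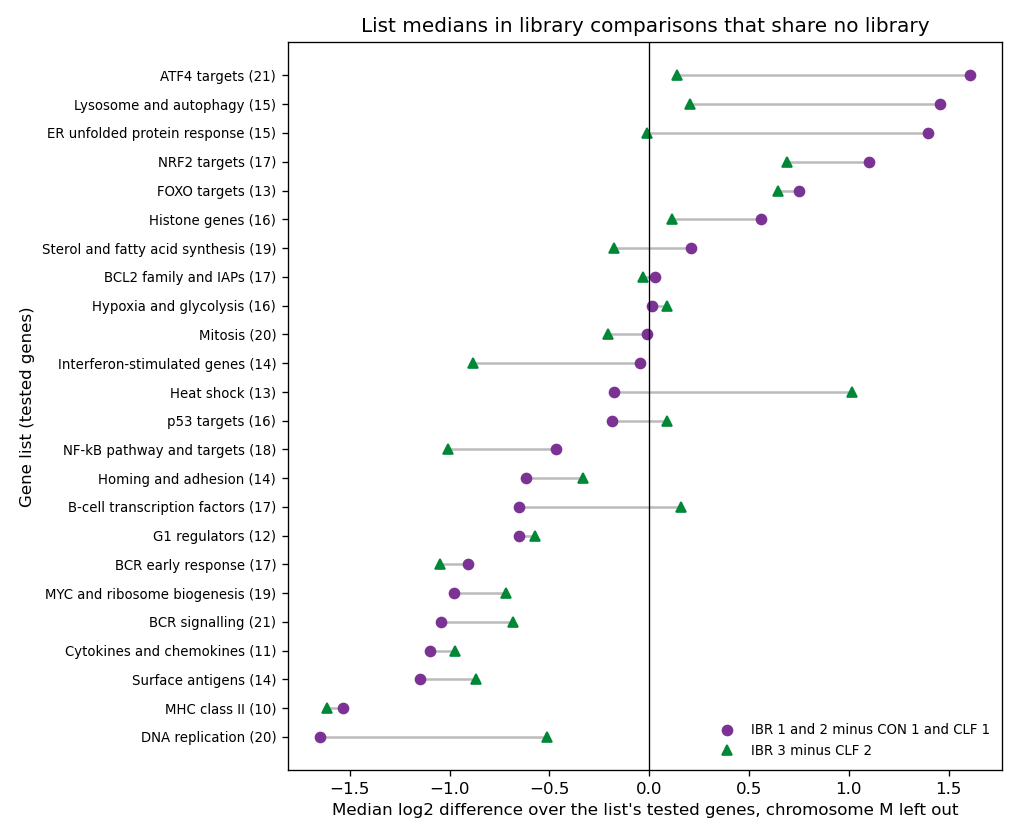
For each gene list, the median log2 difference over its tested genes is given for IBR replicates 1 and 2 minus CON and CLF replicate 1 (circles) and for IBR replicate 3 minus CLF replicate 2 (triangles), with chromosome M left out and the number of tested genes in brackets. MHC class II, B-cell receptor signalling, early response and NF-kB genes lie below 0 in both, while the unfolded protein response list lies at 1.40 and -0.01.

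Among 17 genes of the BCL2 family and inhibitors of apoptosis tested, 3 rose and 2 fell, against 4.2% of all genes higher and 14% lower, and 0 passed in limma with IBR replicates 1 and 2 averaged. All 3 that rose encode BH3-only proteins, which promote cell death. BMF was at 37.7, 42.6 and 56.7 CPM in controls and 102, 86.4 and 109 CPM in IBR, without overlap (1.11, SE 0.21, adjusted p 0.0138). BBC3, which encodes PUMA, was at 11.5, 10.9 and 16.6 CPM in controls and 46.1, 46.5 and 26.6 CPM in IBR (1.52, adjusted p 0.0146), and HRK rose by 1.18 (adjusted p 0.0153). The fallers were BIRC3, given above, and BID (-0.67, adjusted p 0.0288), which did not pass with chromosome M left out (adjusted p 0.117). BID also encodes a BH3-only protein, so the called genes of that class did not all move the same way. MCL1 and BCL2, whose proteins hold cell death back, did not pass. MCL1 was at 494, 456 and 363 CPM in controls and 272, 274 and 321 CPM in IBR (-0.59, adjusted p 0.0687), and BCL2 was at 222, 242 and 304 CPM in controls and 300.3, 279.9 and 441 CPM in IBR (0.39, adjusted p 0.263). BIRC5, survivin, was at 249.7, 247 and 161 CPM in controls and 187, 166 and 134 CPM in IBR (-0.42, adjusted p 0.234). BCL2L11 was listed at 0 in all 6 libraries. The rises came to 0 genes without IBR replicate 1, IBR replicate 2, CON or CLF replicate 1.

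FOXO factors are held out of the nucleus by AKT, a kinase fed by the receptor. Of 13 FOXO targets tested, 3 rose, IRS2, KLHL24 and INSR, and 2 fell, KLF2 and IL7R, against 4.2% of all genes higher and 14% lower. IRS2, an insulin receptor substrate, was at 21.3, 25 and 46 CPM in controls and 142, 149 and 128 CPM in IBR (2.22, SE 0.28, adjusted p 0.00712). KLHL24 was at 35.2, 47.3 and 47.1 CPM in controls and 97.3, 103 and 120.5 CPM in IBR (1.29, SE 0.19, adjusted p 0.00907), and differed by 1.57 and 1.48 in the comparisons that share no library. Both remained called with IBR replicates 1 and 2 averaged (adjusted p 0.0422 and 0.0445), but 0 genes of the list passed in limma with chromosome M also left out. KLF2, a factor of lymphocyte quiescence, fell from 55, 47.7 and 16.3 CPM to 3.67, 8.27 and 12.9 CPM (-2.10, adjusted p 0.033), and did not pass with chromosome M left out (adjusted p 0.0514). The number that rose was 1 gene without CON and 5 without IBR replicate 3, and the number that fell was 0 genes without IBR replicate 1, IBR replicate 2, CON or CLF replicate 1.

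The largest rises of all were in short non-coding RNAs that mostly lack a poly-A tail, in libraries made by poly-A enrichment. The 12 largest were SNORD3A, 7SK, RN7SK, RN7SL4P, RN7SL1, RN7SL2, SCARNA2, RPPH1, 5_8S_rRNA, RNA5-8SN3, RN7SL5P and GDF15. SNORD3A, the U3 RNA that guides rRNA processing (ENSG00000263934, chr17:19188016-19188715), was at 0.828, 0.803 and 7.06 CPM in controls and 1165, 969.5 and 429.8 CPM in IBR. Every treated library was far above every control (8.04, SE 0.61, adjusted p 0.0025). RN7SL1, the RNA of the signal recognition particle, was at 55.4, 59.2 and 69.1 CPM in controls and 7314, 5015 and 659 CPM in IBR (5.54, SE 0.78, adjusted p 0.0088). RN7SK, which holds the elongation factor P-TEFb inactive, was at 1.33, 0.922 and 25.4 CPM in controls and 1044, 777 and 354 CPM in IBR (7.07, adjusted p 0.00714). IBR replicate 3, the library that stood apart, was the lowest of the treated libraries in all 3. Of 37 tested entries of small structural RNA types, 28 rose (75.7%, against 4.2% of all genes) and 0 fell, and such RNA held 0.0150% to 0.0228% of the control libraries and 2.32%, 1.64% and 0.284% of IBR replicates 1, 2 and 3. The 37 were not counted under the alternatives. In the shorter gene list of such RNAs, 6 of 6 tested rose, also with IBR replicates 1 and 2 averaged. The list's count was 1 with chromosome M also left out, 2 without CON and 4 without either IBR replicate 1 or 2. These genes have many near-identical copies and overlapping entries (7SK and RN7SK, and 5_8S_rRNA and RNA5-8SN3, which had identical values), so their separate values are uncertain.

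Mitochondrial rRNA moved with them. It made up 0.202%, 0.240% and 0.957% of the control libraries and 15.03%, 14.06% and 6.95% of the IBR libraries, while other mitochondrial transcripts made up 1.70%, 1.91% and 3.42% against 5.86%, 5.87% and 6.53%. MT-RNR2, the large rRNA, was at 1699, 2020.2 and 7780.3 CPM in controls and 128430.0, 119120.0 and 54553 CPM in IBR (4.98, SE 0.78, adjusted p 0.00954). MT-ND1, an mRNA for complex I, was at 991, 961 and 2269.7 CPM in controls and 4855, 4817 and 5416 CPM in IBR (1.96, adjusted p 0.0175). In all, 11 of 15 mitochondrially encoded genes rose, against 4.2% of all genes. With 1 library left out the number was 0 genes without CON, 1 without IBR replicate 1 or CLF replicate 1 and 2 without IBR replicate 2. Replication-dependent histone mRNAs, which also lack a poly-A tail, included H4C3 and H1-5, which rose (2.85 and 2.38, adjusted p 0.00778 and 0.0099). Of the 16 histone genes tested, 4 rose and 3 fell, against 4.2% of all genes higher and 14% lower. With chromosome M left out 4 rose and 1 fell (6.63% and 6.98% of all genes). With IBR replicates 1 and 2 averaged 2 rose and 1 fell, and 0 passed in limma with both changes. The rises numbered 0 genes without CON, 1 without IBR replicate 1 or CLF replicate 1 and 2 without IBR replicate 2, and the falls 0 genes without IBR replicate 2, CON or CLF replicate 1 and 1 without IBR replicate 1 or CLF replicate 2. Depth was lowest and mitochondrial share highest in IBR replicates 1 and 2; the part of RNA quality or of library preparation in these rises was not tested, and treatment and preparation of these libraries cannot be told apart.

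Under IBR, MYC and part of the mitosis genes differed from controls by more in Z138 than in JEKO-1. In the interaction of line and IBR over 12 libraries, 105 of 14579 genes passed (0.72%), 64 with a higher IBR difference in JEKO-1 (0.439%) and 41 with a lower one (0.281%). With libraries averaged by name, 0 genes passed in limma (1910 at an unadjusted p under 0.05). MYC was at 1227, 954, 1051 and 694 CPM in the 4 Z138 controls and 65.9 and 89.3 CPM in the 2 Z138 IBR libraries, a difference of -3.63, where JEKO-1 gave 0.10. The interaction was 3.73 (SE 0.35, adjusted p 0.00123), and it passed in 21 of 22 alternatives, the exception being the averaging of libraries with names that differ by a final letter (adjusted p 0.0773). Mitosis genes differed in the same direction. Its median IBR difference was -1.90 in Z138 and -0.28 in JEKO-1, and 8 of 20 genes had a higher difference in JEKO-1, or 12 with chromosome M left out, where 0.97% of all genes passed. KIF20A, a mitotic kinesin, gave -0.47 in JEKO-1 and -3.36 in Z138 (interaction 2.89, SE 0.37, adjusted p 0.00615), and PLK1 gave 0.17 and -2.65 (2.82, adjusted p 0.0361). With libraries averaged by name 0 mitosis genes passed, and 3 passed at a pseudocount of 0.1 CPM. With 1 library left out, between 1 and 11 passed, with 1 gene left when JEKO-1 IBR replicate 2, CON or CLF replicate 1, or Z138 CON replicate 1, CON replicate 2 or CLF replicate 1 was removed.

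**Figure D4:**
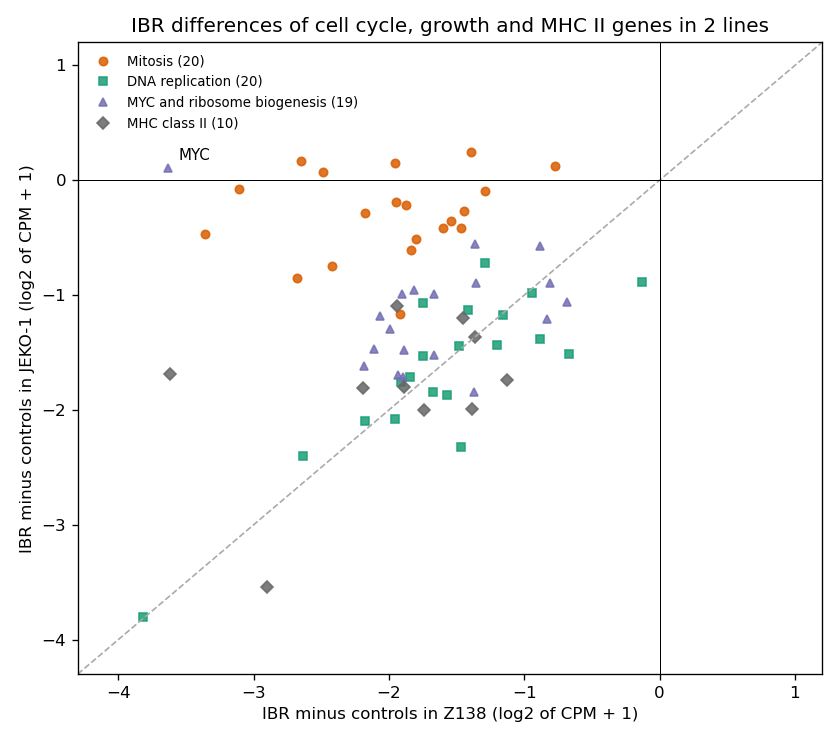
Each point is a gene of 4 lists, with its IBR minus control difference in Z138 on the x axis and in JEKO-1 on the y axis, both in log2 of CPM + 1, and a dashed line of equal values. MYC lies at -3.63 in Z138 and 0.10 in JEKO-1, all 20 mitosis genes lie above the line, and of the 20 replication genes 10 do.

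For MHC class II, B-cell receptor signalling, NF-kB and DNA replication genes, 0 of 10, 0 of 21, 0 of 18 and 0 of 20 genes passed the interaction in limma (1, 2, 4 and 0 at an unadjusted p under 0.05), which does not show that the lines responded alike. Their median IBR differences in Z138 were -1.82, -1.0, -0.16 and -1.53. In the other direction, PTPRCAP and MPEG1, the largest falls in JEKO-1, were at no more than 0.562 and 3.05 CPM in any Z138 library, where little room for a fall remained. Their interactions of -5.02 and -4.60 (adjusted p 0.00364 and 0.0102) therefore give the JEKO-1 falls rather than a comparison of responses. At a pseudocount of 0.1 CPM they were -5.01 and -2.45 and did not pass (adjusted p 0.0705 and 0.217), nor did they with libraries averaged by name (adjusted p 0.0773 and 0.138). BHLHA15, the secretory cell factor MIST1, was at 8.57, 11.9 and 68 CPM in JEKO-1 controls and 170.4, 181 and 92.4 CPM in JEKO-1 IBR, but at 168, 83.6, 124 and 122 CPM in Z138 controls and 13.6 and 41 CPM in Z138 IBR. It rose in JEKO-1 (2.81, adjusted p 0.028) and gave -2.30 in Z138, an interaction of 5.10 (SE 0.90, adjusted p 0.0253). This interaction passed in 13 of 22 alternatives and the JEKO-1 rise in 14 of 24. The Z138 difference was not tested by itself.

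CLF against CON within JEKO-1 gave 0 genes (0%) passing in limma, with 7 at an unadjusted p under 0.05, and 0 with chromosome M left out, with no filter, and with the IBR pair averaged (6, 515 and 8 unadjusted). With 1 CON library, whose spread is taken from the other groups, this says little about whether genes differ. CLF replicate 2 correlated with CLF replicate 1 at r = 0.956 and with CON at r = 0.959 across genes, which are not independent replicates.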

How the data were processed

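RNA was extracted with QIAshredder and RNeasy columns, enriched for poly-A and made into TruSeq v2 libraries, per the labels' protocols. The deposited table gives log2 values per gene; the authors' unit was checked on the values, since the power of 2 minus 1 summed to 999984.0 to 1000008.6 per library, which is log2(CPM + 1). Partek and hg38 are named in the submitters' processing notes, and the aligner and counter are not given in the sources used here. 1 of the 21596 entries had no gene name (no more than 0.00077% of any library) and was dropped. Depth was recovered from the steps of low CPM values, of which 87.2% to 88.8% were whole reads within 0.1 read in the 6 libraries (7.089 to 18.83 M reads); because the rest were not whole, no count test was run. Coordinates are the file's, on hg38.

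Differences in log2(CPM + 1) were fitted by limma 3.58.1 (R 4.3.3, variance trended on intensity) for genes reaching 1 CPM in 2 libraries, with Benjamini-Hochberg adjustment over all genes and a threshold of 0.05. The design had foreseen a count test had the files held counts; limma was its stated fallback. Controls were CON and CLF together, and the comparison with Z138 used the 12 libraries of IBR, CON and CLF in both lines. Alternatives covered scaling, filter, pseudocount, variance model, averaging of libraries with names that differ by a final letter, the choice of controls, and leaving out each library. The same kind of limma fit was tried on simulated data with independent libraries of like spread. The simulation held no close pairs and no libraries standing apart, so it does not bear on those features. Named genes are the 12 largest rises and falls that passed in both scalings without overlap and with at least 5 CPM in the higher group, up to 4 passing members of each list, the B-cell receptor signalling genes (a few items are not reported here), HMOX1, PTPN6, IL10, and 5 interaction genes in each direction; other list members are named for their role, after their values were seen. The members and lists were chosen with earlier results of these data known.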

Additional observations from a re-analysis of the deposited data

Results flagged for a closer look

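Among the genes with the largest changes, 12 had an IBR difference in JEKO-1 that differed from that in Z138 by the interaction test of limma. In BHLHA15 the fitted differences of the lines had opposite signs. They stood 5.10 apart on the log2 scale, which passed in 13 of 22 alternatives. MYC differed by 3.73, with all 6 JEKO-1 libraries between 607 and 718 CPM and a fall in both Z138 IBR libraries. Short non-coding RNAs differed upwards in JEKO-1: RN7SL4P by 6.13, SNORD3A by 5.73, RNU2-2P by 3.71, and 5_8S_rRNA and RNA5-8SN3, which hold identical values, by 3.58 each. RN7SL4P passed in 21 of 22 alternatives, SNORD3A in 16 of 22 and RNU2-2P in 12 of 21. At a pseudocount of 0.1 CPM SNORD3A gave 4.66 (limma adjusted p 0.229). The RNU2-2P value equals its JEKO-1 difference, so it describes JEKO-1 alone. For these RNAs treatment and library preparation cannot be told apart. Differences below 0 were those of PTPRCAP at -5.02, MPEG1 at -4.60, IGLC6 at -3.77, PDZD2 at -3.66 and IGLC1 at -3.59. PTPRCAP, MPEG1 and PDZD2 were at no more than 0.562, 3.05 and 0.84 CPM in any Z138 library and IGLC6 was listed at 0 in all of them, so these 4 values describe JEKO-1 and do not compare the lines' responses. IGLC1 gave -1.22 in Z138; the IGLC entries are near-identical copies whose reads may be split.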

How the results depend on the processing

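For JEKO-1 IBR against controls, the count of 2445 genes stayed within 1.5 times when chromosome M was left out (1845), with size factors (1870) or TMM (1923), without a filter (1676), with a mean of at least 5 CPM (2386), at pseudocounts of 0.1 (2347) and 5 CPM (2471), without an intensity trend (2121), and with chromosome M and small structural RNA types left out (1802). It was 8181 with array weights, 444 with libraries averaged by name, 20 with chromosome M also left out, 76 with the CON library as the only control and 103 in a fit of all 15 JEKO-1 libraries. Added after seeing the data, a term for the library-name set gave 4713 genes, 4205 with chromosome M left out and 2159 with libraries averaged, and averaging both closest pairs gave 8. Leaving out 1 library gave 62 to 4639 genes. The share of calls that were higher was 563 of 2445 as deposited and 899 of 1845 with chromosome M left out.

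For the difference between the lines (105 genes), size factors gave 165, TMM 162, no filter 198, a mean of at least 5 CPM 51, pseudocounts of 0.1 and 5 CPM 43 and 195, array weights 232, and averaging by name 0 in limma (1910 at an unadjusted p under 0.05). Leaving out 1 library gave 7 to 736 genes. The difference in mitochondrial share ranged from 13.9 to 17.6 points with 1 library left out. The cause of these shifts was not tested; averaging and leaving out libraries leave fewer samples. No paired analysis was possible because the labels give no replicate numbers to pair libraries by; the name-set term groups libraries by name and pairs none. Of 115 called genes, 35 lost the call in 1 to 5 alternatives and 73 in more. Depth of 7.09 M reads in IBR replicate 1 puts 3 reads at 0.423 CPM, under which differences could not be read.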

Other observations

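Of 16 hypoxia and glycolysis genes tested, 3 fell and 1 rose: LDHA, lactate dehydrogenase A, was at 1447, 1401 and 1288 CPM in CON and CLF replicates 1 and 2 and at 249, 282 and 586 CPM in IBR (-1.99, SE 0.33, adjusted p 0.0111), while NDRG1, a hypoxia-induced gene, was at 2.55, 3.04 and 5.52 CPM in controls and 16.4, 19.9 and 20.2 CPM in IBR (2.12, SE 0.30, adjusted p 0.0088). Of 19 sterol and fatty acid synthesis genes, 3 fell as deposited and 1 with chromosome M left out, FDPS (-1.0, adjusted p 0.0125). Of 16 p53 targets, BBC3 rose and AEN fell (-1.10, adjusted p 0.0116). Of 14 interferon-stimulated genes, IFI44 fell (-1.49, adjusted p 0.0212). Of 6 metallothionein and zinc genes, 0 passed in limma. Beside these counts, 14% of all genes were lower and 4.2% higher as deposited, and 6.98% and 6.63% with chromosome M left out. The counts are therefore not read as results about these lists. The falls of the hypoxia and of the sterol list numbered 0 without IBR replicate 1, IBR replicate 2, CON or CLF replicate 1, and the hypoxia list had 5 without IBR replicate 3.

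Among protein-coding genes outside the lists, PANX2, a pannexin channel gene, was at 0.106, 0.459 and 1.09 CPM in controls and 11.6, 8.15 and 11.1 CPM in IBR, without overlap (2.89, SE 0.34, adjusted p 0.00603, and 0.0398 with IBR replicates 1 and 2 averaged). UNC5B, a netrin receptor, was at 1.49, 3.50 and 26.0 CPM in controls and 88.9, 78.6 and 86.8 CPM in IBR (3.67, SE 0.75, adjusted p 0.0181), and CCPG1, an autophagy receptor of the endoplasmic reticulum, at 25.0, 30.1 and 250.4 CPM in controls and 405, 433 and 466 CPM in IBR (2.89, SE 0.75, adjusted p 0.0358). In UNC5B and CCPG1, CLF replicate 2 lay between the other controls and IBR. These genes were picked from the 12 largest protein-coding rises after their values were seen.

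On the rescaled values, the difference of IBR replicates 1 and 2 from CON and CLF replicate 1 and that of IBR replicate 3 from CLF replicate 2 had a Pearson r of 0.419 and a Spearman rho of 0.404 across 13393 genes, given as a description since genes are not independent. Of 3080 genes past a 2-fold difference in the first, 75.0% had the same sign in the second, against 64.7% of all genes. Only 25% of the 3080 were past 2-fold with the same sign in the second.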
